A study of Mus musculus with 32 samples.

Results

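The tibialis anterior (TA) muscle of *Mtm1* knockout (KO) mice was followed from P1 to P14, an interval in which mouse limb muscle leaves its newborn state. The data were 8 of the 32 RNA sequencing libraries of a time series, namely the 4 KO libraries of P1 and the 4 of P14, chosen by the genotype and day in their labels. In KO mice part of exon 4 of *Mtm1*, an X-linked gene, is missing, so that the reading frame shifts and translation ends early. The deletion is present in every cell of the animal, so muscle fibres are not the only cells without the gene. The line came from a 129S2PAS background and was rederived onto C57BL6/J. The mice were untreated, and the labels give 1 library per sample with no note of pooling. WT TA muscle of the same ages and background (4 libraries of each age) was used only to ask whether KO muscle took another course. The labels number the replicates and say nothing of litters or of animals shared between libraries, so *P*-values measure the spread between these libraries.

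MTM1 is the founding member of the myotubularins, phosphatases that remove the phosphate at the third position of the inositol ring of phosphoinositides of the endosome, and its loss causes X-linked myotubular myopathy. In rodent limb muscle the first weeks after birth are a time of exchange. Fibres give up embryonic and neonatal myosin heavy chains for adult fast ones, the acetylcholine receptor exchanges its fetal gamma subunit for the adult epsilon subunit, triads take on their adult order, and energy supply comes to rest on mitochondria and on a high glycolytic capacity. Cells between the fibres slow their division, and imprinted and fetal growth genes are switched off in many organs. TA is a mostly fast muscle.

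KO libraries held 58473134 to 85631408 counts at P1 and 58942499 to 68663050 at P14. The 12 defining markers of skeletal muscle were all detected at both ages and summed to 23108 to 44607 CPM (counts scaled to library size) at P1 and 80859.7 to 118299 at P14. P1 libraries also held RNA of neighbouring tissues. The 17 keratinocyte markers summed to 7775, 6967, 2640.0 and 5699 CPM in P1 replicates 1 to 4 and to 23.1 to 36.9 CPM at P14, where 5 of 17 exceeded 1 CPM in some library and 1 was at 0 in all. The 12 markers of cartilage and bone summed to 673 to 1189 CPM at P1 and 14.4 to 38.1 at P14. WT P1 libraries were alike in this (keratinocyte sums of 2894 to 9119 CPM). P1 replicate 4 stood apart. Its 21 gut epithelium markers summed to 148 CPM against 7.53 to 14.9 in the other P1 libraries and 2.83 to 3.59 at P14, where 12 of the 21 were at 0 in every library. It also had the lowest sum of muscle markers, and 5.2% of its counts were mitochondrially encoded, against 3.21 to 3.35% in the other 3. Results are therefore given with and without it where that matters. Keratinocyte and cartilage sums moved with age in both genotypes, and their part in the changes below was not tested. In such bulk samples fewer cells of a type and less RNA per cell cannot be told apart.

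**Figure D1:**
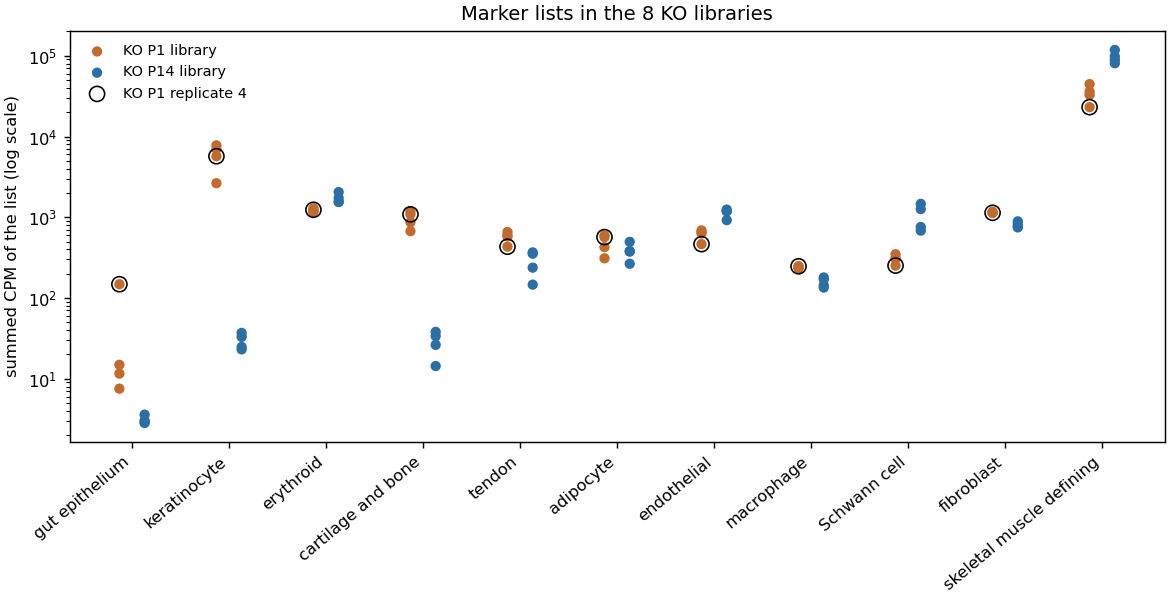
Summed CPM (log axis) of 11 marker lists in each of the 8 KO libraries, P1 in orange and P14 in blue, with P1 replicate 4 ringed. The keratinocyte sums lie at 2640.0 to 7775 at P1 and 23.1 to 36.9 at P14, and the gut epithelium sum of P1 replicate 4, 148, is far above the other P1 libraries.

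*Mtm1* itself (ENSMUSG00000031337, chrX:71210767-71315691 in GRCm38, plus strand) was still counted in KO muscle. It measured 2.82, 2.92, 2.98 and 4.76 CPM at P1 and 4.65, 5.36, 4.90 and 4.51 CPM at P14. The highest P1 value was that of replicate 4, and it overlapped the P14 values. The log2 fold change of P14 over P1 was 0.53 ± 0.19, adjusted *P*=0.0264 by edgeR's quasi-likelihood test with Benjamini-Hochberg adjustment, which did not pass the calling threshold. Without P1 replicate 4 it was 0.74 (adjusted *P*=4.73e-04), past the threshold, and with scaling by library totals its sign turned (-0.20). In the fit of all 16 libraries WT muscle measured 6.33, 6.41, 7.12 and 6.18 CPM at P1 and 24.2, 22.7, 24.3 and 25.7 CPM at P14. Every library labelled KO was below every library labelled WT of its age.

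Much of the KO muscle transcriptome moved between P1 and P14. Genes were called when the adjusted *P*-value was under 0.01 and the change was over 1.5-fold (0.58 on the log2 scale) in either direction. By this rule 9328 of 17719 genes tested were called (52.6%), with 4168 higher at P14 (23.5%) and 5160 lower (29.1%). Of the called genes, 744 were more than 4-fold higher and 2100 more than 4-fold lower. The 4 libraries of P1 did not overlap the 4 of P14 for 12465 genes (70.3% of those tested), 9258 of them called. The first principal component held 89.7% of the variance and parted the 2 ages. Without P1 replicate 4 there were 4150 higher and 5008 lower genes. Scaling set the balance of directions. Over all genes tested the median log2 fold change was -0.09 with TMM and -0.81 with library totals, a shift of -0.71, and library totals called 1630 genes higher (9.20%) and 9616 lower (54.3%). Changes are given with TMM, and where library totals turned the sign of a named called gene this is said. Counts within the gene lists below are to be read beside these shares of all genes tested.

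**Figure D2:**
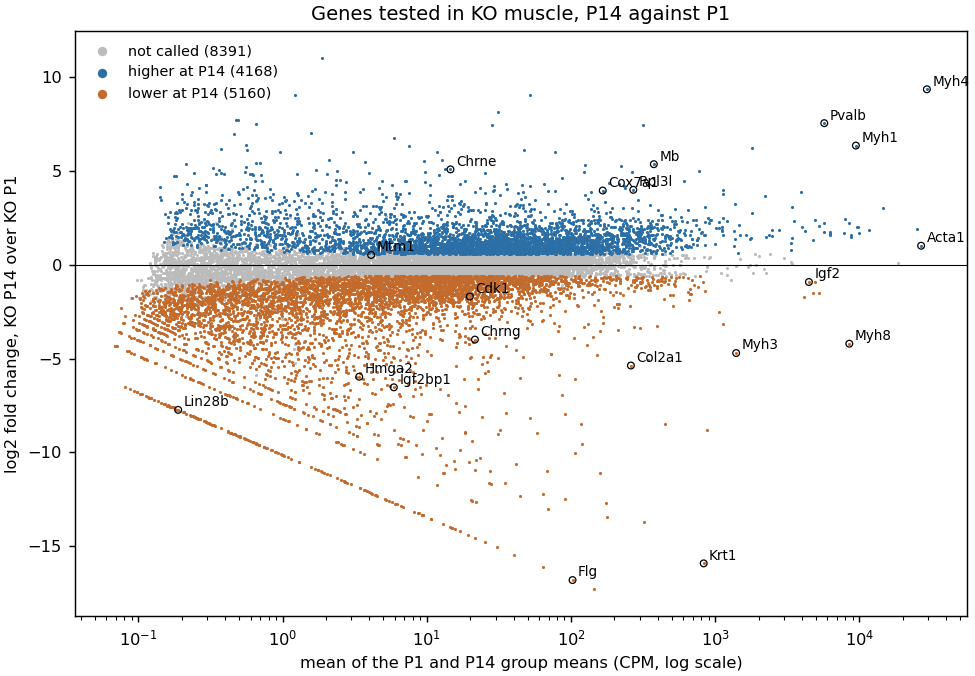
Each point is 1 of the 17719 genes tested, placed by the mean of its 2 group means (CPM, log axis) and by its log2 fold change of KO P14 over KO P1. Blue points (4168) were called higher at P14, orange points (5160) lower and grey points were not called, and ringed genes are named. The straight lower edges are genes with a count of 0 at P14.

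The 10 genes with the highest fold changes, among called protein-coding genes of at least 10 CPM whose ages did not overlap, included many known from mature fast fibres. They were led by *Myh4*, the myosin heavy chain of type 2B fibres (log2 fold change 9.36 ± 0.83, adjusted *P*=7.75e-06). *Myh4* measured 57.6, 114, 168 and 16.1 CPM at P1 and 42384, 57038, 71229.9 and 63702 CPM at P14. *Pvalb* encodes parvalbumin, a calcium buffer of fast fibres, and measured 39.1, 71.7, 99.7 and 30.7 CPM at P1 and 7633, 9473, 13178 and 15079 CPM at P14 (7.56 ± 0.51, adjusted *P*=1.92e-06). *Mb*, encoding the oxygen carrier myoglobin, measured 13.2, 20.8, 21.98 and 15.1 CPM at P1 and 622, 659, 723 and 927 CPM at P14 (5.37 ± 0.23, adjusted *P*=3.18e-07). P1 replicate 4 had the lowest value of *Myh4* and *Pvalb* among the P1 libraries. Without that library the log2 fold changes were 9.01, 7.34 and 5.30. *Aqp4*, the water channel of fast fibre membranes, went from 3.66, 7.12, 11.9 and 1.77 CPM to 183, 226, 246 and 317 CPM (5.32 ± 0.55, adjusted *P*=1.80e-05). The other 6 were *Klhl33* (7.43 ± 0.27), *Myh1* and *Myh2* (described with the myosins), *Igfn1* (6.10 ± 0.30), *Neu2* (6.03 ± 0.22) and *Sbk2* (6.0 ± 0.30). *Neu2* encodes a cytosolic sialidase and measured 0.246, 0.481, 0.342 and 0.358 CPM at P1 and 19.8, 20.6, 29.2 and 23.6 CPM at P14.

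The 10 genes with the lowest fold changes were all genes of the skin barrier. *Krt1*, a keratin of differentiated epidermis, measured 2234, 2081, 721 and 1613 CPM at P1 and 0.0981, 0, 0 and 0 CPM at P14. *Flg*, encoding filaggrin, was at 306, 250.4, 92.5 and 171 CPM at P1 and had no count in any P14 library. With a floor of 3 counts per library it was at least 3366-fold lower at P14, and *Calm4* at least 4716-fold lower. *Hrnr*, *Lce1m*, *Flg2*, *Lce1a1*, *Lce1a2*, *Il1f5* and *Casp14* were likewise at 0 at P14 and at least 556- to 2102-fold lower. *Lce1a1* and *Lce1a2* are near-identical copies, so their separate values are uncertain. In each of the 10 the lowest P1 value was that of replicate 3, the library with the smallest keratinocyte sum and the largest sum of muscle markers.

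The myosin heavy chains showed the exchange of isoforms most fully. *Myh3* (embryonic), *Myh8* (perinatal), *Myh2* (type 2A), *Myh1* (type 2X) and *Myh4* (type 2B) lie side by side on chromosome 11, and *Myh7* (slow) lies elsewhere. *Myh3* measured 3048, 2963, 2868 and 1880.2 CPM at P1 and 155, 134, 82.8 and 40.9 CPM at P14 (log2 fold change -4.70 ± 0.42, adjusted *P*=7.98e-06). *Myh8* measured 17517, 18609.6, 21457 and 6924 CPM at P1 and 1715, 1327, 342 and 113 CPM at P14 (-4.21 ± 0.81, adjusted *P*=0.00104). Both were lower in each P14 library than in any P1 library, and within P14 the values of *Myh8* spread over a wide range. *Myh1* measured 165, 269, 391 and 83.5 CPM at P1 and 22054, 20808, 16600.3 and 15182 CPM at P14 (6.36 ± 0.52, adjusted *P*=4.88e-06), and *Myh2* 33.5, 51.7, 73.2 and 27.4 CPM at P1 and 4262, 4181, 3383 and 2329 CPM at P14 (6.25 ± 0.40, adjusted *P*=1.49e-06). Each of these adult fast genes was higher in every P14 library than in any P1 library. *Myh7* (544, 612, 595 and 383 CPM at P1 and 756, 778, 679.6 and 663 CPM at P14) did not overlap between the ages but was not called (0.43 ± 0.16, adjusted *P*=0.0306), and its sign turned with library totals (-0.26).

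Shares within a library do not depend on the scaling between libraries. Where all members of a set are genes of muscle fibres, as with the myosins, they also do not count the skin RNA of the P1 libraries. The authors' counting divides reads shared by close paralogs by estimation, so the values of such paralogs are uncertain to that extent. CPM were divided by kilobases of exon, with all annotated exons of a gene merged. This length was 11.8 kb for *Myh8*, 6.06 kb for *Myh3* and 6.02 kb for *Myh4*, and it can exceed that of the RNA made. The level of every share therefore depends on the annotation. The share of the 6 heavy chain RNAs taken by *Myh8* was 71.0, 71.5, 73.9 and 61.1% at P1 and 1.28, 0.831, 0.193 and 0.0717% at P14. That of *Myh3* was 24.0, 22.1, 19.2 and 32.2% at P1 and 0.225, 0.163, 0.0908 and 0.0504% at P14. At P14 *Myh4* took 61.9, 69.9, 78.7 and 79.0% of the 6, up from 0.457, 0.860, 1.13 and 0.277%. *Myh1* rose from 1.76 ± 0.576% to 22.5 ± 6.197% (SD, n=4) and *Myh2* from 0.342 ± 0.0871% to 3.79 ± 1.25%. The share of *Myh7* fell from 3.41 ± 0.823% to 0.634 ± 0.109%. P1 replicate 4 had more *Myh3* and less *Myh8* than the other P1 libraries. At P14 the order *Myh4*, *Myh1*, *Myh2* was the same in all 4 libraries. For each of these 6 shares, and for the other 16 that were computed, the P1 and P14 libraries did not overlap, and an exact two-sided permutation test over the 70 assignments of 8 libraries gave *P*=0.0286, the smallest value it can give (adjusted over the 22 shares, 0.0286). The shares were added after the data had been seen.

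**Figure D3:**
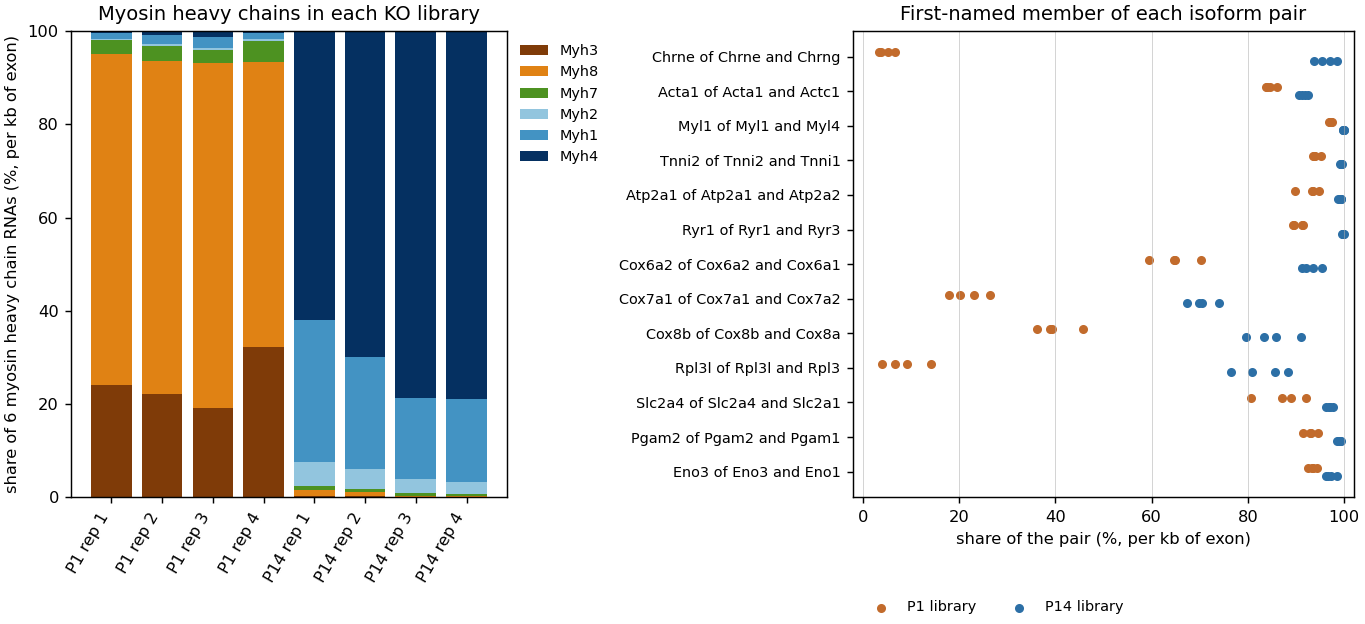
Left, stacked bars give the share (%) of each of 6 myosin heavy chain RNAs in each KO library, from CPM per kilobase of exon. Right, points give the share (%) of the first-named member of 13 isoform pairs in each P1 (orange) and P14 (blue) library, and in every pair the 2 ages do not overlap.

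The promoter windows of 4 of these genes are shown because their RNAs exchanged places. Each runs from 250 bases before the RefSeq start site to the first 50 transcribed bases (GRCm38.p6, all on the plus strand). They are *Myh3* (chr11:67078050-67078349) and *Myh8* (chr11:67276874-67277173), which fell, and *Myh1* (chr11:67199852-67200151) and *Myh4* (chr11:67237562-67237861), which rose. Capitals mark matches to the MEF2 box, to the letters TATAAA and to the E-box CANNTG bound by basic helix-loop-helix factors.
Myh3: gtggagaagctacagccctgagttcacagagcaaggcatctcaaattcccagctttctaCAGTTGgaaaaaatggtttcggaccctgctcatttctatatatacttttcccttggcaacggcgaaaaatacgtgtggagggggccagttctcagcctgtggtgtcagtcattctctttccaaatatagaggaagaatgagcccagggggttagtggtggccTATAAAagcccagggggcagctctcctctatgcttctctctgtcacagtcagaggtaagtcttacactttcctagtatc
Myh8: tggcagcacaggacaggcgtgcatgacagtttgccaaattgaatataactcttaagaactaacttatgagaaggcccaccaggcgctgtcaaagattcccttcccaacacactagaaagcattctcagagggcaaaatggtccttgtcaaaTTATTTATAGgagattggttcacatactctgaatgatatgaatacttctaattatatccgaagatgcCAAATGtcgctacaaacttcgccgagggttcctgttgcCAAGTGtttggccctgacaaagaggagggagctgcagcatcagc
Myh1: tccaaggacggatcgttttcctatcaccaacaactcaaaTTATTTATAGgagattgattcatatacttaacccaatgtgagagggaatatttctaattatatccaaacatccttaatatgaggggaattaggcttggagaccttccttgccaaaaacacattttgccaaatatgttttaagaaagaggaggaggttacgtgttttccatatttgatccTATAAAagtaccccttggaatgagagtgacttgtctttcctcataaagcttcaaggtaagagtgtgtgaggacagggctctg
Myh4: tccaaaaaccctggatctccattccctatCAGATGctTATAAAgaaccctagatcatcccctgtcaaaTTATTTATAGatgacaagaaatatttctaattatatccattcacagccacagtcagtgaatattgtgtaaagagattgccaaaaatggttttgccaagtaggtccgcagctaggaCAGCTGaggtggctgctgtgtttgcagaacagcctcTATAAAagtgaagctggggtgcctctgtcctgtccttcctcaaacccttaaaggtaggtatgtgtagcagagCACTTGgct

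The 3 windows of *Myh8*, *Myh1* and *Myh4* held the same MEF2 box letters, TTATTTATAG, at 99, 211 and 182 bases before the start site. *Myh3* held no MEF2 box in this window. Letters TATAAA stood at 29 (*Myh3*), 32 (*Myh1*) and 31 (*Myh4*) bases before the start, with a further match at 213 bases in *Myh4*. With both strands searched for the MEF2 and E-box, 1 window per gene and overlaps between motifs allowed, 3.27% of 27025 genes held a MEF2 box, 8.90% TATAAA on the plus strand of the gene and 72.1% an E-box. Among the adult fast fibre genes 4 of 13 with a window held a MEF2 box. The shared box stood in genes of both directions.

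The 14 genes listed as developmental and cardiac isoforms did not move as 1 group. The list was broad and held *Acta2*, an actin of smooth muscle, so it does not describe sarcomere isoforms alone. Of the 14 listed genes 13 passed the filter on low counts, and 5 of these were called higher and 4 lower (median log2 fold change 0.06, against -0.09 over all genes, of which 23.5% were higher and 29.1% lower). The 4 lower were *Myh3*, *Myh8*, *Myl4* and *Tnnt2*. *Myl4*, the embryonic and atrial essential light chain, measured 307, 299.9, 329 and 248 CPM at P1 and 32.004, 34.6, 34.2 and 39.4 CPM at P14 (-3.08 ± 0.12, adjusted *P*=2.33e-07). *Tnnt2*, the cardiac troponin T of developing muscle, measured 162, 154, 173 and 127 CPM at P1 and 30.7, 32.1, 25.5 and 21.4 CPM at P14 (-2.49 ± 0.15, adjusted *P*=1.25e-06). The 5 higher were *Myh15*, *Mybph*, *Tnni3*, *Acta2* and *Myh6*, all but *Myh15* named after their values were seen, at log2 fold changes of 1.92, 1.62, 1.28, 1.11 and 0.94. *Myh15* measured no more than 0.325 CPM in any library. With library totals 1 was higher and 7 lower. *Actc1*, cardiac actin, was not called (3386, 3558, 4009.5 and 2375 CPM at P1 and 2732, 3244, 3961 and 3924 CPM at P14, 0.06 ± 0.21, adjusted *P*=0.818), whereas *Acta1*, skeletal actin, rose (1.02 ± 0.28, adjusted *P*=0.00865), a call lost at adjusted *P*=0.0103 to 0.0321 without P1 replicate 1 or 2 or without P14 replicate 2, 3 or 4. It was also lost with library totals (0.31), with a replicate block (adjusted *P*=0.0346), with at least 10 counts in every library (adjusted *P*=0.0152) and with edgeR's newer quasi-likelihood estimate (adjusted *P*=0.144). The share of *Acta1* in the pair was 84.0, 84.6, 86.1 and 83.8% at P1 and 92.5, 91.3, 90.7 and 91.9% at P14.

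Of 20 adult fast fibre genes 19 rose and none fell (median 2.22), against 23.5% and 29.1% of all genes tested. With library totals 18 rose, against 9.20% of all genes tested. Without P1 replicate 4 there were also 19. *Atp2a1*, the calcium pump of the fast sarcoplasmic reticulum, measured 3226, 3555, 4289.9 and 1617 CPM at P1 and 17327, 22146, 29933 and 33885 CPM at P14 (3.03 ± 0.37, adjusted *P*=5.21e-05). *Myl1*, the fast essential light chain, had a log2 fold change of 1.72 ± 0.23, adjusted *P*=9.76e-05, *Tnnt3*, fast troponin T, of 2.03 ± 0.27, adjusted *P*=8.85e-05, and *Tnni2*, fast troponin I, of 1.82 ± 0.22, adjusted *P*=4.27e-05. The 1 gene not called was *Mylk4* (0.49 ± 0.29, adjusted *P*=0.146), whose sign turned with library totals. Slow fibre genes were divided, with 2 of 16 higher, 6 lower and a median of -0.02, beside 23.5% higher and 29.1% lower of all genes tested. The 2 higher were *Pln*, encoding the pump inhibitor phospholamban (0.210, 0.313, 0.342 and 0.347 CPM at P1 and 3.57, 4.44, 2.97 and 5.36 CPM at P14, 3.76 ± 0.26, adjusted *P*=2.07e-06), and *Myl2* (0.85, named after its value was seen). *Tnni1*, slow troponin I, fell from 256, 281, 278 and 270.5 CPM to 98.6, 100.3, 100.4 and 96.7 CPM (-1.45 ± 0.08, adjusted *P*=7.66e-07), and *Casq2*, the cardiac and slow calsequestrin, from 923, 997, 1152 and 744 to 533, 490.4, 298 and 232 CPM (-1.30 ± 0.27, adjusted *P*=0.00154). *Fhl2* had the lowest change of the list (-1.55 ± 0.19, adjusted *P*=6.09e-05). *Mybpc1*, slow myosin binding protein C, was at 3284, 3341, 3832 and 2112 CPM at P1 and 3399, 3444, 3369 and 3827 CPM at P14 and was not called (0.16 ± 0.20). Shares told the same pairs apart. *Tnni2* held 94.1 ± 0.748% at P1 and 99.3 ± 0.132% at P14 of its pair with *Tnni1* (mean ± SD, n=4), *Tnnt3* 93.7 ± 1.58% at P1 and 99.1 ± 0.157% at P14 of the 3 troponin T genes, and *Myl1* 97.2 ± 0.276% at P1 and 99.9 ± 0.00801% at P14 of its pair with *Myl4*. The share of *Atp2a1* in its pair with the slow pump *Atp2a2* was 92.8 ± 2.07% at P1 and 99.2 ± 0.308% at P14, while *Atp2a2* alone was not called (-0.17 ± 0.13, adjusted *P*=0.253).

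Genes of excitation-contraction coupling, the chain from membrane voltage to calcium release at the triad, rose in 21 of 29 cases and fell in 4 (median 1.94). Over all genes tested 23.5% rose and 29.1% fell. Loss of MTM1 is known to disturb triads. *Ryr1*, the calcium release channel, measured 469, 544, 581 and 271 CPM at P1 and 2218, 2971, 3817 and 3613 CPM at P14 (2.76 ± 0.28, adjusted *P*=1.58e-05). *Trdn*, encoding triadin, measured 139.8, 161, 199 and 107 CPM at P1 and 1746, 2001, 2108 and 2547 CPM at P14 (3.79 ± 0.23, adjusted *P*=1.14e-06). Every P14 library of both genes was above every P1 library. *Srl*, encoding sarcalumenin, rose by a smaller margin (1.53 ± 0.20, adjusted *P*=9.21e-05). Among membrane channels *Kcna7* rose most (2.68, 3.18, 3.60 and 2.50 CPM at P1 and 44.6, 52.2, 60.6 and 64.2 CPM at P14, 4.22 ± 0.16, adjusted *P*=2.19e-07), and the adult sodium channel *Scn4a* went from 56.7, 59.2, 62.1 and 27.0 CPM to 205, 253, 319 and 287 CPM (2.38 ± 0.26, adjusted *P*=2.56e-05). *Cacna1s*, the voltage sensor, had a log2 fold change of 2.40 ± 0.26 and *Clcn1*, the chloride channel, of 3.94 ± 0.23. These 2 were named after their values were seen. Among the 4 that fell were *Sln*, *Ryr3* and *Cacna1h*, of which *Ryr3* (-2.90) and *Cacna1h* (-2.04) were named after their values were seen. These 3 are known from immature or cardiac muscle. *Sln*, encoding the pump inhibitor sarcolipin, measured 339, 407, 446 and 373 CPM at P1 and 41.9, 46.9, 25.5 and 25.6 CPM at P14 (-3.48 ± 0.23, adjusted *P*=1.64e-06). The share of *Ryr1* in its pair with *Ryr3* was 90.5 ± 1.12% at P1 and 99.8 ± 0.154% at P14. *Bin1*, a membrane-bending partner of MTM1 at the T-tubule, was not called (554, 572, 674 and 374 CPM at P1 and 652, 716, 686 and 702 CPM at P14, 0.34 ± 0.17, adjusted *P*=0.0897), nor was the caveolin *Cav3* (-0.41, named after its value was seen). With library totals 19 of the 29 rose and 6 fell.

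At the neuromuscular junction the 2 receptor subunits moved in opposite directions. *Chrng*, the fetal gamma subunit, measured 46.4, 44.6, 44.6 and 26.8 CPM at P1 and 3.27, 3.03, 2.81 and 1.04 CPM at P14 (log2 fold change -3.99 ± 0.32, adjusted *P*=4.41e-06). *Chrne*, the adult epsilon subunit, measured 0.666, 0.995, 1.28 and 0.434 CPM at P1 and 19.9, 25.7, 37.2 and 30.6 CPM at P14 (5.09 ± 0.33, adjusted *P*=1.61e-06). Per kilobase of exon the share of *Chrne* in the pair was 3.41, 5.21, 6.61 and 3.83% at P1 and 93.7, 95.4, 97.0 and 98.6% at P14. *Chrng* was the major member in all 4 P1 libraries and *Chrne* in all 4 P14 libraries. P1 replicate 4 had the lowest value of both. Without it the log2 fold changes were -4.14 and 4.87.

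Promoter windows of both subunits are shown with E-boxes in capitals, and in *Chrne* also the N-box CCGGAA, a motif of genes read by nuclei under the synapse. *Chrng* (chr1:87205561-87205860) is on the plus strand and *Chrne* (chr11:70619145-70619444) on the minus strand, and both are written in the direction of the gene.
Chrng: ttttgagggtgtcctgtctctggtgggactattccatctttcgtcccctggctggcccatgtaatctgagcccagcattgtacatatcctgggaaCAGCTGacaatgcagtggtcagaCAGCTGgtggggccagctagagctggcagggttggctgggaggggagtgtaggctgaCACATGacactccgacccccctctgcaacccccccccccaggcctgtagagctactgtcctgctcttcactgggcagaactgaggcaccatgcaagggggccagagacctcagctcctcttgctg
Chrne: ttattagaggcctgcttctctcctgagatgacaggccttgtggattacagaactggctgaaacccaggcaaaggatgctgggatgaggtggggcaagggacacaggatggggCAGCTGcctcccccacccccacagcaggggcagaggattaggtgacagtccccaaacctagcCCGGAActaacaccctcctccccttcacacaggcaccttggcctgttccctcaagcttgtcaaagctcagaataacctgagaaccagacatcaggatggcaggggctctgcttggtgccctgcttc

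*Chrng* held 3 E-boxes, at 155, 132 and 75 bases before the start site, of which the first 2 were CAGCTG. *Chrne* held 1 E-box, CAGCTG at 138 bases, and the N-box at 76 bases. An N-box on either strand stood in 15.2% of the windows of all genes and in 1 of 13 junction genes with a window. Over the 18 junction genes 6 rose and 4 fell (median 0.36, -0.35 with library totals, where 2 rose and 8 fell). Of all genes tested 23.5% rose and 29.1% fell, or 9.20% and 54.3% with library totals. The other 3 that fell were *Ncam1* (-2.25), *Chrnd* (-1.71) and *Agrn* (-0.74), named after their values were seen. *Prkar1a*, a regulatory subunit of protein kinase A, was called higher (0.62 ± 0.13, adjusted *P*=0.00139), but at 0.53 (adjusted *P*=5.72e-04) without P1 replicate 4 it was under the fold threshold, and its sign turned with library totals. *Utrn*, encoding utrophin (-0.19 ± 0.11, adjusted *P*=0.137), and *Nes*, encoding nestin (-0.43 ± 0.22, adjusted *P*=0.107), were not called.

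Myogenic and satellite cell genes numbered 9 of 30 higher and 7 lower (median 0.36), beside 23.5% higher and 29.1% lower of all genes tested. Without P1 replicate 4 the counts were 7 and 8, and with library totals 5 and 11. *Dlk1*, an imprinted ligand-like gene of immature muscle, fell most (2119, 2108, 2301 and 1555 CPM at P1 and 386, 298, 153 and 84.0 CPM at P14, -3.13 ± 0.43, adjusted *P*=1.19e-04). *Myog*, the differentiation factor myogenin, measured 148, 168, 174 and 115 CPM at P1 and 77.3, 88.0, 79.8 and 52.3 CPM at P14 (-1.02 ± 0.18, adjusted *P*=5.51e-04). The fusion genes *Mymk* (-1.11) and *Mymx* (-1.65) and the early factor *Myf5* (-1.15) also fell and *Myf6*, the myogenic factor of adult fibres, rose (1.07). These 4 were named after their values were seen. *Pax7*, which marks satellite cells, measured 16.4, 19.2, 18.5 and 8.50 CPM at P1 and 14.2, 12.3, 10.6 and 7.65 CPM at P14 and was not called (-0.48 ± 0.26, adjusted *P*=0.122), though it was lower past the threshold without P1 replicate 4 (-0.69, adjusted *P*=0.00970). *Ckm*, muscle creatine kinase, had the highest change (1.85 ± 0.30, adjusted *P*=3.59e-04). *Des*, encoding desmin, was not called (0.56 ± 0.22, adjusted *P*=0.0382). It was higher past the threshold with DESeq2 (0.589, adjusted *P*=0.00723) and with all 32 libraries in 1 fit (0.591, adjusted *P*=0.00118), and its sign turned with library totals (-0.15).

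**Figure D4:**
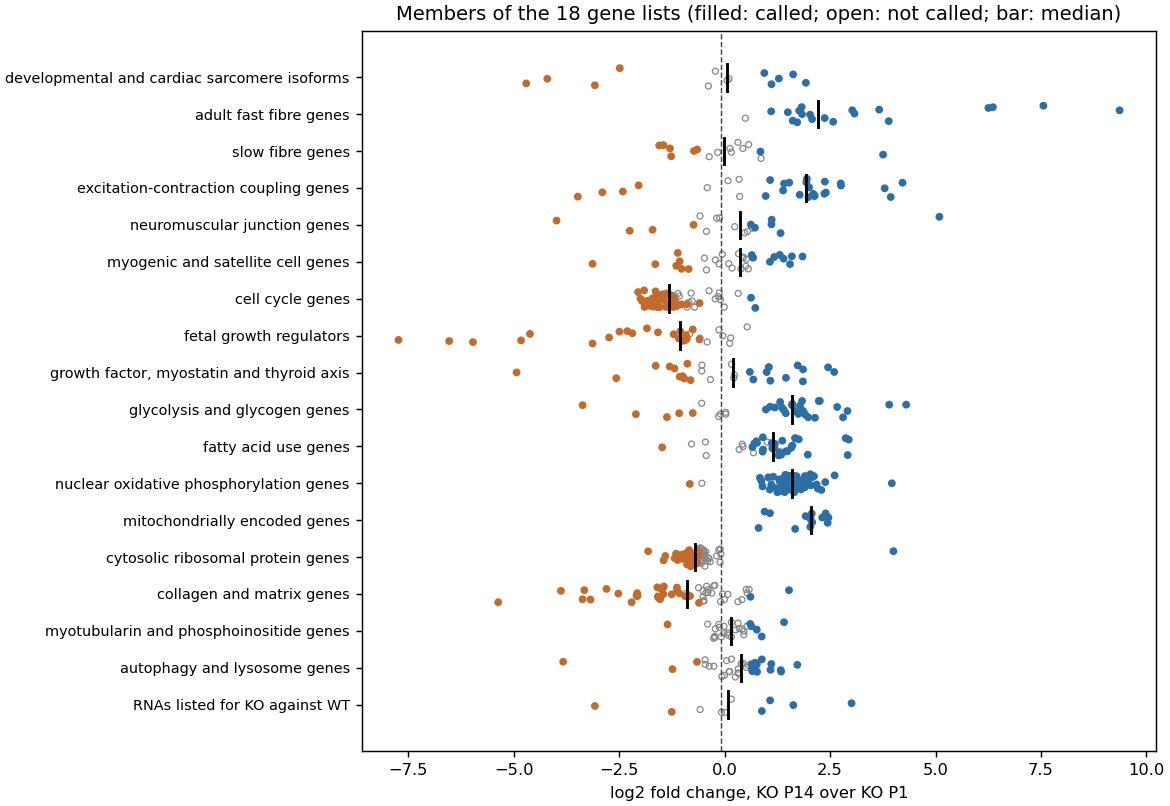
Log2 fold change of KO P14 over KO P1 for each tested member of the 18 lists, filled when called (blue higher, orange lower) and open when not, with a bar at the list's median. The dashed line is the median of all genes tested, -0.09. Oxidative phosphorylation genes lie to the right (median 1.6) and cell cycle genes to the left (median -1.31).

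Genes of mitochondrial energy supply rose in nearly every case. Of 78 nuclear genes of oxidative phosphorylation 76 were higher (median 1.6), against 23.5% of all genes tested. With library totals 64 were higher, against 9.20%. The 2 not higher with TMM were the widely expressed isoforms *Cox6a1* and *Cox8a*. *Atp5b*, a catalytic subunit of ATP synthase, measured 1689, 1924, 2309 and 1438 CPM at P1 and 4322, 4742, 5003 and 5702 CPM at P14 (1.43 ± 0.19, adjusted *P*=9.99e-05). *Atp5a1* (1.46 ± 0.17, adjusted *P*=4.50e-05) and the complex II subunit *Sdha* (1.6 ± 0.21, adjusted *P*=8.39e-05) rose by similar amounts. *Cox7a1*, the muscle isoform of a cytochrome oxidase subunit, rose most, from 14.9, 20.3, 28.6 and 16.3 CPM to 252, 283, 299.99 and 413 CPM (3.96 ± 0.25, adjusted *P*=1.37e-06). Its widely expressed counterpart *Cox7a2* also rose, by less (0.87 ± 0.12, adjusted *P*=8.81e-05), but was not called with library totals (0.15). The share of *Cox7a1* in the pair was 20.2, 23.2, 26.4 and 17.9% at P1 and 67.5, 69.9, 70.6 and 74.1% at P14. In the other pairs the widely expressed member did not rise. *Cox6a2* rose (2.06 ± 0.19, adjusted *P*=1.08e-05) and *Cox6a1* fell (61.4, 63.4, 68.6 and 66.8 CPM at P1 and 42.4, 37.9, 34.2 and 32.1 CPM at P14, -0.83 ± 0.10, adjusted *P*=3.84e-05). *Cox8b* rose (2.61 ± 0.25, adjusted *P*=1.21e-05) and *Cox8a* was not called (-0.54 ± 0.13, adjusted *P*=0.00417), though it was lower past the threshold without P1 replicate 1 (-0.62, adjusted *P*=0.00244) or P14 replicate 1 (-0.61, adjusted *P*=0.00283). The share of *Cox6a2* was 64.8 ± 4.42% at P1 and 93.1 ± 1.82% at P14, and that of *Cox8b* was 40.05 ± 4.06% at P1 and 85.0 ± 4.79% at P14 (mean ± SD, n=4). With 1 member of each pair widely expressed, these shares and that of *Cox7a1* also count RNA of other tissues, whose part was not tested. All 13 mitochondrially encoded genes were higher (median 2.04), 10 of them with library totals. They made up 3.21 to 5.2% of counts at P1 and 7.07 to 9.27% at P14. *mt-Nd4*, a complex I subunit, rose most (2269.5, 2201, 2270.3 and 2996 CPM at P1 and 10344, 12814, 13271 and 17143 CPM at P14, 2.46 ± 0.23, adjusted *P*=1.04e-05). *mt-Co1* measured 9502, 9269, 9631 and 13454 CPM at P1 and 30981, 37253, 40057 and 49937 CPM at P14 (1.92 ± 0.27, adjusted *P*=1.40e-04), and *mt-Cytb* had a log2 fold change of 2.03 ± 0.23, adjusted *P*=3.50e-05. In these 3 P1 replicate 4 was the highest P1 library. *mt-Co2* rose least (0.80 ± 0.23, adjusted *P*=0.00978), a call lost at adjusted *P*=0.0131 to 0.0343 without any 1 of P1 replicates 1 to 3 or P14 replicates 2 to 4, and also lost with library totals (0.06).

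Of 36 genes of fatty acid use 27 rose and 1 fell (median 1.16), and 14 rose and 4 fell with library totals. For this list and the next, the shares over all genes tested were 23.5% and 29.1%, or 9.20% and 54.3% with library totals. *Fabp3*, the fatty acid binding protein of muscle, measured 67.2, 119, 122 and 63.7 CPM at P1 and 552, 669.6, 758 and 877 CPM at P14 (2.94 ± 0.26, adjusted *P*=7.75e-06). *Hadha*, a subunit of the mitochondrial trifunctional enzyme, rose (1.45 ± 0.21, adjusted *P*=1.42e-04), as did *Acadl* (0.91 ± 0.16, adjusted *P*=6.89e-04) and the lipase *Lpl* (0.75 ± 0.14, adjusted *P*=9.53e-04). The latter 2 were not called with library totals (0.19 and 0.04). The 1 gene that fell was *Ppara*, a nuclear receptor that switches on fatty acid oxidation (20.3, 15.5, 18.1 and 13.8 CPM at P1 and 5.22, 5.85, 5.39 and 7.75 CPM at P14, -1.48 ± 0.16, adjusted *P*=2.86e-05). Glycolysis and glycogen genes rose in 25 of 35 cases and fell in 5 (median 1.6), and with library totals 21 rose and 10 fell. *Aldoa*, muscle aldolase, measured 2670.4, 3036, 3787 and 2024 CPM at P1 and 6669, 7658, 9776 and 14538 CPM at P14 (1.75 ± 0.30, adjusted *P*=4.93e-04). *Phkg1*, the catalytic subunit of muscle phosphorylase kinase, rose most (17.8, 22.8, 32.2 and 10.4 CPM at P1 and 279.6, 375, 441 and 544 CPM at P14, 4.3 ± 0.36, adjusted *P*=5.47e-06). *Gapdh* (1.32 ± 0.26, adjusted *P*=0.00121) and the muscle enolase *Eno3* (1.19 ± 0.26, adjusted *P*=0.00204) rose with TMM and were not called with library totals (0.59 and 0.47). The 5 that fell were isoforms known from other tissues, namely *Aldoc* (3.75, 3.82, 3.40 and 4.37 CPM at P1 and 0.392, 0.253, 0.398 and 0.449 CPM at P14, -3.37 ± 0.20, adjusted *P*=1.24e-06), *Eno2* (-2.11), *Pygb* (-1.37), *Pgam1* (-1.08) and *Pfkp* (-0.76). The last 4 were named after their values were seen. The share of *Pgam2*, the muscle mutase, in its pair with *Pgam1* was 93.1 ± 1.29% at P1 and 99.0 ± 0.336% at P14, and that of *Eno3* in its pair with *Eno1* 93.5 ± 0.789% at P1 and 97.2 ± 0.949% at P14. *Slc2a4*, the insulin-responsive glucose transporter, rose (1.67 ± 0.20, adjusted *P*=5.09e-05) and *Slc2a1*, the transporter of many fetal cells, was not called (-0.55 ± 0.17, adjusted *P*=0.0132). It was lower past the threshold without P1 replicate 3 (-0.65, adjusted *P*=0.00360), with at least 10 counts in every library (-0.64, adjusted *P*=0.00646) and with library totals (-1.27, adjusted *P*=2.63e-04). The share of *Slc2a4* in the pair was 87.2 ± 4.83% at P1 and 97.0 ± 0.609% at P14. *Pgam1*, *Eno1* and *Slc2a1* are also made by other tissues, so the shares of their pairs count that RNA too.

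Most cell cycle genes were lower at P14. Of 56, 38 were lower and 2 higher (median -1.31), against 29.1% and 23.5% of all genes tested. Without P1 replicate 4 there were 32 lower. The 2 higher were the inhibitor *Cdkn1b* (41.7, 37.0, 44.9 and 45.2 CPM at P1 and 60.9, 67.3, 70.3 and 80.7 CPM at P14, 0.73 ± 0.10, adjusted *P*=1.52e-04) and the pocket protein gene *Rbl2* (0.62, named after its value was seen), and neither rose with library totals. *Cdc25c*, the phosphatase that starts mitosis, fell most (3.03, 3.25, 3.06 and 3.98 CPM at P1 and 1.16, 1.08, 0.697 and 0.236 CPM at P14, -2.05 ± 0.37, adjusted *P*=6.59e-04). *Cdk1*, the mitotic kinase, named after its value was seen, had a log2 fold change of -1.69 ± 0.34 (mean 30.4 ± 2.63 CPM at P1 and 9.38 ± 4.65 at P14). The more abundant *Tubb5*, a tubulin of dividing cells, followed the same direction and measured 394, 401, 383 and 399 CPM at P1 and 229.9, 191, 164 and 109.6 CPM at P14 (-1.18 ± 0.19, adjusted *P*=3.72e-04). *Mki67*, the proliferation marker, measured 120.4, 133, 121 and 99.7 CPM at P1 and 85.9, 70.3, 50.3 and 17.6 CPM at P14. It did not overlap between the ages and yet was not called (-1.08 ± 0.38, adjusted *P*=0.0252), with P14 values that spread widely, and without P14 replicate 4 it was called (-0.77, adjusted *P*=0.00346). *Mki67* was also called with DESeq2 (-1.06, adjusted *P*=0.00529), with a replicate block (-1.27, adjusted *P*=0.00972) and with library totals (-1.74, adjusted *P*=0.00327). Of the inhibitors *Cdkn1a* fell (291, 297, 294 and 210.3 CPM at P1 and 80.4, 99.8, 151 and 185 CPM at P14, -1.08 ± 0.25, adjusted *P*=0.00292), a call lost without P14 replicate 2 (adjusted *P*=0.0124), and *Cdkn1c* was at the edge (-0.60 ± 0.17, adjusted *P*=0.00976) and was lost without any 1 library other than P1 replicate 4 (adjusted *P*=0.0103 to 0.0366). The keratinocyte and cartilage sums were also higher at P1, by the values given above, and their part in these counts was not tested.

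The window of *Cdk1* (chr10:69352863-69353162, minus strand, written in the direction of the gene) is shown as an example of a promoter of this group. Capitals mark the CCAAT box on either strand and the cell cycle homology region, read here as TTTGAA on either strand.
Cdk1: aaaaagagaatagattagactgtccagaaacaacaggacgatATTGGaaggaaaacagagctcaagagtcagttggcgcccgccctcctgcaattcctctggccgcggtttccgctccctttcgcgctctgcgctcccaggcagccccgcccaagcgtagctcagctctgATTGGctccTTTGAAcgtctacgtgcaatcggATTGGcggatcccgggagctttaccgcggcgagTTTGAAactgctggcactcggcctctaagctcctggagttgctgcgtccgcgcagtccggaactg

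It held the CCAAT box in its reverse form ATTGG at 208, 80 and 48 bases before the start site and TTTGAA at 71 and 15 bases. Of the cell cycle genes with a window, 16 of 42 held TTTGAA and 28 of 42 a CCAAT box, against 18.1% and 37.9% of the windows of all genes. These are matches of letters only.

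Fetal growth regulators were mostly lower at P14, with 21 of the 29 tested lower and none called higher (median -1.05). Among all genes tested 29.1% were lower and 23.5% higher. 1 of the 30 listed genes did not pass the filter on low counts, and without P1 replicate 4 *Nr6a1* was higher (0.65, adjusted *P*=0.00763). *Lin28b*, which blocks the maturation of let-7 microRNAs, was at 0.420, 0.324, 0.399 and 0.369 CPM at P1 and at 0 in all 4 P14 libraries, at least 6.21-fold lower against a floor of 3 counts. The let-7 target genes *Igf2bp1* (log2 fold change -6.53 ± 0.33) and *Hmga2* (-5.97 ± 0.24) also fell, and *Igf2bp3* (-2.74) and *Igf2bp2* (-2.49) fell by less. These 4 were named after their values were seen. Imprinted genes differed among themselves. *Igf2*, the fetal growth factor, measured 5661, 6422, 7142 and 4097 CPM at P1 and 4135, 3489, 2659.7 and 2081 CPM at P14. The lowest P1 value lay under the highest P14 value, and the call (-0.92 ± 0.26, adjusted *P*=0.00972) was lost without any 1 of P1 replicates 1 to 3 or P14 replicates 2 to 4 (adjusted *P*=0.0190 to 0.0353). *H19*, the non-coding RNA that shares its control region with *Igf2*, measured 16839, 19105, 23945 and 11346 CPM at P1 and 23504, 22155, 15452 and 16188 CPM at P14 and was not called (0.12 ± 0.29, adjusted *P*=0.729). *Meg3*, another imprinted RNA (1621, 1288, 1359 and 2269 CPM at P1 and 1298, 1108, 655 and 620.3 CPM at P14), was not called either (-0.83 ± 0.28, adjusted *P*=0.0224), though it was without P14 replicate 1 (-1.02, adjusted *P*=0.00948). DESeq2 (-0.81, adjusted *P*=0.00395) and library totals (-1.53, adjusted *P*=0.00195) also called it lower. *Rtl1* (-4.83), *Magel2* (-4.62), *Plagl1* (-2.31) and *Mest* (-2.19) were lower and were named after their values were seen. With library totals 25 of the 29 fell, against 54.3% of all genes tested.

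Growth factor, myostatin and thyroid genes rose in 11 of the 28 tested (30 listed) and fell in 10 (median 0.19, -0.51 with library totals, where 5 rose and 13 fell), beside 23.5% and 29.1% of all genes tested. *Igfbp2* fell most (55.6, 77.8, 48.2 and 176 CPM at P1 and 4.59, 3.05, 2.83 and 1.13 CPM at P14, -4.93 ± 0.53, adjusted *P*=2.34e-05), with its highest value in P1 replicate 4 (-4.37 without it). Further binding proteins of insulin-like growth factors also fell, *Igfbp3* (243, 255, 242 and 238 CPM at P1 and 91.4, 86.1, 92.5 and 126 CPM at P14, -1.30 ± 0.13, adjusted *P*=1.23e-05) and *Igfbp4* (-0.96 ± 0.17, adjusted *P*=7.02e-04), and *Igfbp5* rose (423, 397, 332 and 347 CPM at P1 and 1159, 1304, 1728 and 785 CPM at P14, 1.73 ± 0.22, adjusted *P*=7.69e-05). The binding proteins therefore did not share a direction. *Trim63*, a ubiquitin ligase of the sarcomere, rose most (42.5, 36.3, 51.1 and 31.97 CPM at P1 and 152, 196, 244 and 387 CPM at P14, 2.6 ± 0.28, adjusted *P*=2.59e-05). *Mstn*, the growth inhibitor myostatin, measured 30.8, 32.4, 41.2 and 26.9 CPM at P1 and 52.3, 54.8, 60.6 and 42.4 CPM at P14 (0.68 ± 0.15, adjusted *P*=0.00198) and did not pass with library totals (-0.02). *Dio3*, which inactivates thyroid hormone, fell (-2.57), and the thyroid hormone receptor gene *Thrb* rose (2.45). Both were named after their values were seen.

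Cytosolic ribosomal protein genes were lower in 48 of 79 cases and higher in 1 (median -0.69). The counts were 37 and 1 without P1 replicate 4, and 78 and 1 with library totals. All genes tested were lower in 29.1% and higher in 23.5% of cases, or 54.3% and 9.20% with library totals. The 1 ribosomal gene that rose was *Rpl3l*, a paralog of *Rpl3* restricted to striated muscle. *Rpl3l* measured 24.6, 32.3, 50.9 and 19.5 CPM at P1 and 404, 463, 563 and 606 CPM at P14 (4.0 ± 0.31, adjusted *P*=3.42e-06), and *Rpl3* measured 653, 624, 594 and 894 CPM at P1 and 239, 211, 181 and 155 CPM at P14 (-1.81 ± 0.18, adjusted *P*=1.45e-05), the lowest change of the list. The share of *Rpl3l* in the pair was 6.78, 9.10, 14.2 and 4.04% at P1 and 76.5, 81.0, 85.7 and 88.3% at P14. *Rpl3* is used by all cells, skin included, so this share also counts RNA of other tissues. Of the 3 members with the highest CPM, *Rplp0* (-0.45 ± 0.13, adjusted *P*=0.0119), *Rpl4* (-0.34 ± 0.11, adjusted *P*=0.0166) and *Rps2* (-0.09 ± 0.11, adjusted *P*=0.465), none was called.

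Collagen and matrix genes were lower in 27 of 51 cases and higher in 2 (median -0.90), and 43 were lower with library totals. Over all genes tested 29.1% were lower and 23.5% higher, and 54.3% were lower with library totals. *Col1a1* measured 10442, 8204, 7651 and 4812 CPM at P1 and 3575, 2667, 3268 and 1389 CPM at P14 (-1.51 ± 0.33, adjusted *P*=0.00231), and *Col1a2* had a log2 fold change of -1.48 ± 0.30, adjusted *P*=0.00141. *Col3a1* was lower (-0.93 ± 0.22, adjusted *P*=0.00306), with adjusted *P*=0.01004 to 0.0121 and no call without P1 replicate 1 or 2 or P14 replicate 2. *Col2a1*, the collagen of cartilage, fell most (648, 434, 328 and 623 CPM at P1 and 18.002, 11.3, 15.99 and 3.80 CPM at P14, -5.37 ± 0.48, adjusted *P*=7.96e-06) and is also one of the cartilage markers given above. *Col15a1*, a basement membrane collagen of muscle and vessels, rose (175, 198, 191 and 131 CPM at P1 and 611, 562, 470.2 and 359 CPM at P14, 1.53 ± 0.19, adjusted *P*=6.22e-05), as did *Timp3* (0.61, named after its value was seen). Fibroblast markers summed to 1133 to 1171 CPM at P1 and 748 to 890.2 at P14, and their part in these changes was not tested. Marker sums of the remaining cell types of the muscle are given with TMM. Endothelial markers summed to 465 to 687 CPM at P1 and 921 to 1244 at P14, Schwann cell markers to 252 to 348 and 683 to 1465, and macrophage markers to 232 to 247 and 135 to 179.6. As shares of counts, endothelial sums overlapped between the ages (0.0646 to 0.0825% at P1 and 0.0699 to 0.102% at P14). Of the 9 endothelial markers 6 were called higher with TMM and 0 with library totals. Schwann cell and macrophage sums kept their direction as shares of counts. The rise of the Schwann cell sum came with 4 called genes, among them the myelin genes *Mbp* (2.48) and *Mag* (1.85), while *Sox10* (-0.24) and *S100b* (-0.10) were not called. The erythroid sum (1172 to 1292 CPM at P1 and 1546 to 2053 at P14) was raised by 1 gene, the transferrin receptor *Tfrc* (4.46). Of the 11 tested erythroid markers 9 were lower. As a share of counts the erythroid sum did not rise (0.142 to 0.172% at P1 and 0.117 to 0.144% at P14). Adipocyte sums overlapped between the ages with TMM (310.3 to 596 and 265 to 496 CPM). As shares of counts they were lower at P14 without overlap (0.0397 to 0.0790% at P1 and 0.0201 to 0.0347% at P14). The fatty acid binding protein *Fabp4*, also made by endothelium, held most of that sum, while *Adipoq* (-4.89) and *Plin1* (-4.15) were among 6 of 9 that fell. Tendon markers gave 432 to 657 CPM at P1 and 146 to 367 at P14. Members of these marker lists were named here after their values were seen.

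Of 27 genes of the myotubularin family and its partners 5 were higher and 1 lower, against 23.5% and 29.1% of all genes tested (median 0.16, -0.58 with library totals, where 1 was higher and 13 lower), and 3 were higher without P14 replicate 4.  *Mtmr3*, a family member with phosphatase activity, measured 109.9, 101, 111 and 97.2 CPM at P1 and 91.9, 100.2, 98.3 and 90.3 CPM at P14 (-0.14 ± 0.08, adjusted *P*=0.140). *Speg*, a kinase of the triad that binds MTM1, rose (142, 156, 159 and 82.5 CPM at P1 and 326, 359.9, 386 and 358 CPM at P14, 1.41 ± 0.19, adjusted *P*=1.09e-04). *Mtmr1*, a close relative of *Mtm1*, was called at 0.61, and *Pik3c2b*, a kinase that makes the phosphoinositides MTM1 removes, at 0.88. The other 2 higher were *Inpp4a* (0.76) and *Vac14* (0.63), and all but *Speg* were named after their values were seen. *Dnm1*, a neuronal dynamin, fell (39.4, 34.9, 32.7 and 42.2 CPM at P1 and 18.8, 14.6, 15.2 and 9.76 CPM at P14, -1.35 ± 0.18, adjusted *P*=8.34e-05). *Dnm2*, the dynamin of T-tubules and endosomes, measured 67.4, 64.7, 64.4 and 54.7 CPM at P1 and 68.5, 72.8, 67.0 and 72.1 CPM at P14 and was not called (0.16 ± 0.08, adjusted *P*=0.110). Autophagy and lysosome genes rose in 14 of 35 cases and fell in 3 (median 0.39), and with library totals 2 rose and 12 fell. The shares over all genes tested were 23.5% and 29.1%, or 9.20% and 54.3% with library totals. *Tfeb*, a regulator of lysosome genes, rose most (23.8, 28.1, 28.9 and 16.1 CPM at P1 and 70.5, 76.6, 79.8 and 92.8 CPM at P14, 1.72 ± 0.18, adjusted *P*=1.81e-05). Among the 3 that fell were *Ctsk*, a cathepsin of bone-resorbing cells (339.9, 244, 230.2 and 240.4 CPM at P1 and 22.4, 18.9, 19.8 and 13.04 CPM at P14, -3.83 ± 0.20, adjusted *P*=6.89e-07), and *Hexa* (-0.66), the latter named after its value was seen. The cathepsins *Ctsb* (0.44 ± 0.10, adjusted *P*=0.00352) and *Ctsd* (0.39 ± 0.12, adjusted *P*=0.0159) and the lysosomal membrane gene *Lamp1* (0.57 ± 0.11, adjusted *P*=0.00125) did not overlap between the ages but stayed under the fold threshold or above that of the adjusted *P*-value. *Lamp1* was called at 0.59 to 0.64 (adjusted *P*=0.00126 to 0.00412) without P1 replicate 3 or P14 replicate 1, 2 or 3. DESeq2 also called it higher (0.595, adjusted *P*=1.18e-06).

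Of 10 RNAs listed for their part in KO against WT muscle, because the study names the gene or its protein or because they stood out in earlier results of these libraries, 4 rose and 2 fell from P1 to P14 in KO muscle. Over all genes tested 23.5% rose and 29.1% fell. With the list chosen in this way, the counts are not independent evidence of a direction. *Cilp*, a secreted matrix protein, measured 57.3, 66.4, 71.4 and 39.4 CPM at P1 and 365, 437, 626 and 458 CPM at P14 (3.01 ± 0.23, adjusted *P*=3.23e-06). *Htra4*, a secreted protease, measured 1.51, 1.398, 1.24 and 1.62 CPM at P1 and 3.71, 4.39, 4.20 and 5.55 CPM at P14 (1.63 ± 0.17, adjusted *P*=1.84e-05). *Dysf*, the membrane repair gene dysferlin, rose (1.08 ± 0.19, adjusted *P*=5.73e-04, 0.38 with library totals, not called), as did *Sqstm1*, encoding the autophagy receptor p62 (0.88 ± 0.19, adjusted *P*=0.00198, 0.15 with library totals). *Tuba1a*, a tubulin of growing cells, fell (406, 409, 408 and 503 CPM at P1 and 245, 197, 169.7 and 112 CPM at P14, -1.26 ± 0.21, adjusted *P*=4.29e-04), and *Myl4* is described above. *Tubb6* (-0.58 ± 0.12, adjusted *P*=0.00174), *Runx1* (0.01 ± 0.13, adjusted *P*=0.967), *Mustn1* (-0.08 ± 0.10, adjusted *P*=0.523) and *Dnm2* were not called. *Tubb6* was called without P1 replicate 4 (-0.69, adjusted *P*=9.30e-05) or P14 replicate 3 (-0.62, adjusted *P*=0.00418).

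The course of KO muscle was then compared with that of WT muscle, as the interaction of genotype and age in 1 fit of 16 libraries. For this, log2 ratios of group mean CPM were taken, with 0.05 CPM added to each mean. Across 18362 genes the ratio of KO P14 over KO P1 and that of WT P14 over WT P1 had a Pearson's r of 0.972. This describes genes of the same libraries, and genes are not independent replicates. Of 9319 genes called in KO muscle with a WT value, 9305 (99.8%) had a WT ratio of the same sign. The WT change was not tested. Keratinocyte and cartilage sums fell with age in both genotypes, and their part in this share and in r was not tested. The interaction passed an adjusted *P*-value of 0.01 for 8 of 18362 genes (0.0436%), 4 with a more positive and 4 with a more negative course in KO, and without adjustment 1380 genes had a *P*-value under 0.05. DESeq2 called 52. Members of the 18 lists among the 8 were *Mtm1*, *Ppara*, *Cilp* and *Htra4*. Of 50 genes simulated with a 1.5-fold difference of courses, the interaction test called 3 in the right direction. It called 21 of 50 at 2-fold, 31 of 50 at 4-fold and 43 of 50 at 8-fold. Most differences of 2-fold or less could therefore be missed. The count of 8 does not show that the courses of the other genes were alike. The count rested on single libraries. It was 0 without KO P14 replicate 3, WT P1 replicate 1, WT P1 replicate 4 or WT P14 replicate 1, where edgeR gave 1169 to 1336 genes at an unadjusted *P*-value under 0.05. It was 1 without KO P1 replicate 2 or KO P14 replicate 2, 2 without KO P1 replicate 1 or WT P14 replicate 2, and 3 without WT P1 replicate 2, WT P14 replicate 3 or WT P14 replicate 4. It was 6 without KO P14 replicate 1 (5 shared with the full fit) or WT P1 replicate 3 (6 shared). It was again 8 without KO P1 replicate 4 (7 shared), KO P1 replicate 3 or KO P14 replicate 4 (6 shared each).

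In 4 genes KO muscle rose more. *Cilp* had the largest difference of courses (2.18 ± 0.28, adjusted *P*=0.00465, on the log2 scale). KO libraries measured 55.8, 64.8, 69.8 and 38.2 CPM at P1 and 357, 428, 613 and 449 CPM at P14, and WT libraries 58.1, 78.6, 67.5 and 71.1 CPM at P1 and 109, 116, 159.9 and 106 CPM at P14. The 2 genotypes overlapped at P1 and were apart at P14. *Eda2r*, a receptor of the tumour necrosis factor family (1.51 ± 0.22, adjusted *P*=0.00975), measured 16.8, 14.5, 19.1 and 14.7 CPM at P1 and 49.3, 57.1, 77.2 and 83.7 CPM at P14 in KO and 13.2, 17.2, 13.8 and 16.3 CPM at P1 and 19.2, 19.9, 23.8 and 24.5 CPM at P14 in WT. In both genes the WT libraries rose less. *Cpne2*, a calcium-dependent phospholipid-binding copine (1.23 ± 0.14, adjusted *P*=0.00465), measured 8.22, 7.83, 8.34 and 6.84 CPM at P1 and 24.4, 25.4, 29.97 and 31.8 CPM at P14 in KO and 8.58, 8.35, 8.97 and 8.58 CPM at P1 and 12.1, 14.6, 14.3 and 11.5 CPM at P14 in WT. *Htra4* (1.68 ± 0.23, adjusted *P*=0.00617) rose in KO to 3.63, 4.298, 4.11 and 5.44 CPM at P14 and measured 1.06, 1.197, 1.49 and 1.08 CPM in WT at that age, with P1 values of 1.47, 1.36, 1.21 and 1.57 CPM in KO and 1.14, 1.498, 1.10 and 1.24 CPM in WT. For all 4 the P14 libraries of the 2 genotypes did not overlap. In the other 4 KO muscle rose less or fell more. *Mtm1* (-1.36 ± 0.19, adjusted *P*=0.00791) was one of them. *Galnt15*, of the family that starts O-glycan chains (-1.02 ± 0.13, adjusted *P*=0.00470), rose in both genotypes, from 19.9, 14.6, 16.9 and 18.2 to 61.8, 70.3, 67.1 and 66.4 CPM in KO and from 11.04, 13.4, 12.3 and 10.9 to 91.4, 94.6, 98.0 and 83.6 CPM in WT. *Chodl*, encoding the membrane lectin chondrolectin (-1.26 ± 0.15, adjusted *P*=0.00465), fell in KO from 42.3, 51.3, 51.2 and 48.6 to 14.4, 11.9, 13.1 and 15.8 CPM, with 30.2, 38.4, 31.9 and 35.95 CPM at P1 and 20.5, 21.3, 24.3 and 27.1 CPM at P14 in WT. Both genes kept their direction in WT muscle. *Ppara* (-1.43 ± 0.19, adjusted *P*=0.00617) measured 19.8, 15.1, 17.6 and 13.3 CPM at P1 and 5.11, 5.73, 5.28 and 7.59 CPM at P14 in KO and 6.78, 7.14, 8.43 and 7.37 CPM at P1 and 6.62, 6.99, 8.002 and 7.19 CPM at P14 in WT. At P1 all 4 KO libraries of *Ppara*, of *Chodl* and of *Galnt15* lay above all 4 WT libraries, while at P14 *Ppara* overlapped. Over the alternatives the adjusted *P*-value of each ran from 1.50e-10 to 0.0171 for *Cpne2*, 3.05e-10 to 0.0176 for *Cilp*, 7.45e-07 to 0.0384 for *Eda2r*, 5.25e-08 to 0.0622 for *Mtm1*, 3.61e-08 to 0.272 for *Ppara*, 3.68e-09 to 0.333 for *Galnt15*, 3.47e-08 to 0.395 for *Htra4* and 1.40e-09 to 0.586 for *Chodl*. With 1 library left out in turn, *Cpne2* was called in 11 of 16 fits, *Chodl* in 9, *Galnt15* in 7, *Cilp* in 6, *Htra4* in 5, *Ppara* in 3, and *Mtm1* and *Eda2r* in 2 each.

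**Figure D5:**
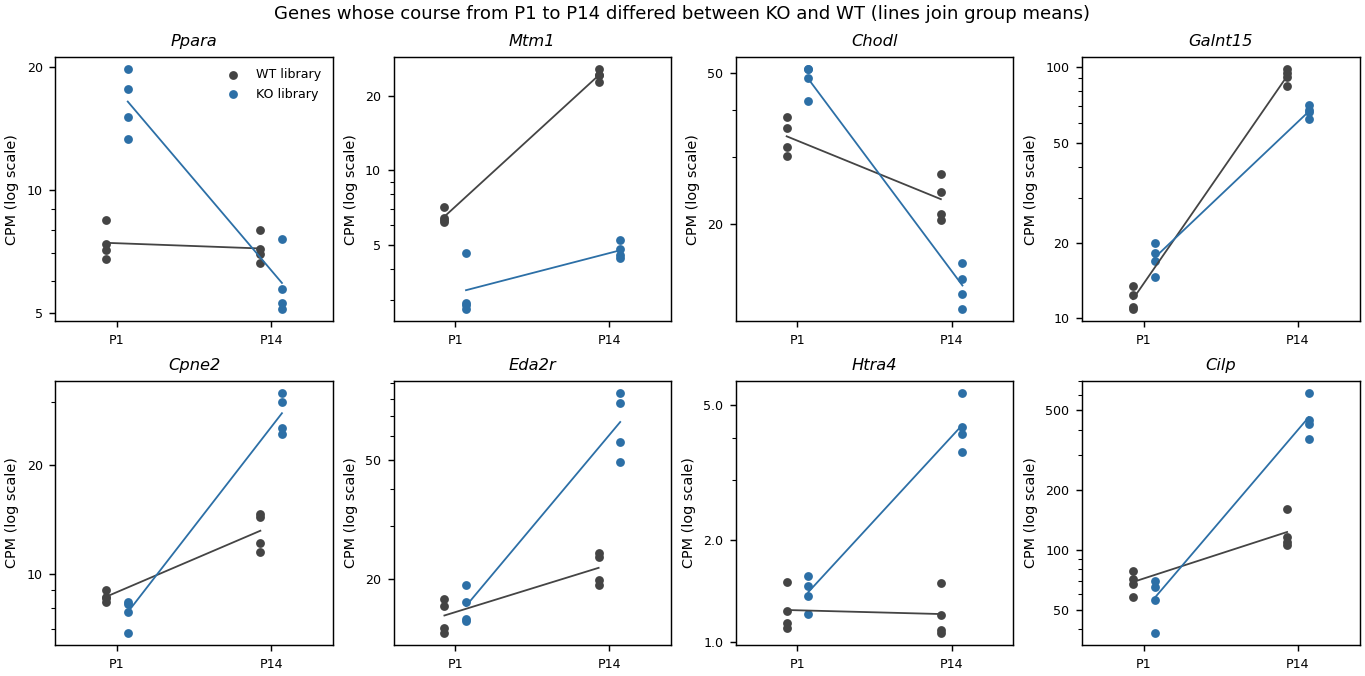
CPM (log axis) of the 8 genes in each KO (blue) and WT (grey) library at P1 and P14, with lines joining group means. In the lower row KO rises more steeply than WT, and in the upper row it rises less or falls more.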

How the data were processed

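RNA of TA muscle was sequenced by the study as paired-end reads after a directional library kit. The deposited values are expected counts per gene, which the authors estimated with RSEM 1.2.22 after STAR 2.6.1 on GRCm38 (submitters' processing notes, which also name DESeq2). The study's methods name HTSeq as the counter and do not list P1 among the RNA ages, while the labels do. The annotation release and strand setting are not given in the sources used here, so reads of overlapping antisense genes cannot be told apart. Of the expected counts of the 8 KO libraries 4.78% had a fraction above 0, and all were rounded. Libraries were grouped by genotype and day in their labels.

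Counts were filtered with filterByExpr, scaled with TMM and tested with edgeR 4.0.16 (quasi-likelihood test, two-sided, limma 3.58.1, R 4.3.3) on the 8 KO libraries. *P*-values were adjusted by Benjamini-Hochberg over all genes tested. The interaction with genotype used 16 libraries and an adjusted *P*-value under 0.01. CPM are TMM-scaled, so those of the fit of 16 libraries differ slightly. At depths of 58473134 counts or more the spread between libraries, not counting error, limits precision for genes of high count. Intervals from counts alone were not used. For genes of few counts, such as *Myh15* (at most 8 counts in a P1 and 18 in a P14 library), counting error also limits precision. The lowest chi-square per degree of freedom between KO replicates was 21.2, so no library was counted as a repeat.

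Named genes were *Mtm1*, the 10 highest and 10 lowest called protein-coding genes that did not overlap and averaged at least 10 CPM, in each list the 3 of highest CPM and the highest and lowest fold change, a fixed set of isoforms, all 8 genes of the interaction, and the 10 RNAs listed for KO against WT muscle. Genes outside this rule are marked in the text, and a few genes are not reported here. The members and lists were chosen with earlier results of these data known. Alternatives were DESeq2 1.42.0, other scalings and filters, other thresholds, all 32 libraries in 1 fit, a replicate block and each library left out. The shares and their alternatives (each library left out, no division by exon length) were added after seeing the data. The scripts were tested on simulated data. Python 3.11.15 with pandas 2.3.3, numpy 2.4.6, scipy 1.17.1 and matplotlib 3.10.9 made tables and figures. Promoter windows came from RefSeq (GRCm38.p6), and 445 of the 597 list genes had a window.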

Additional observations from a re-analysis of the deposited data

Results flagged for a closer look

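In a group of 4 libraries a value was singled out when its gap to the nearest other value exceeded the 95% critical value of Dixon's test. This held for 19 of 314 groups examined, and chance gives about 1 in 20. P1 replicate 4 was the odd library in many of them. It was the highest P1 library for *Mtm1* (4.76 CPM), *mt-Nd4* (2996 CPM), *mt-Co1* (13454 CPM) and *Tuba1a* (503 CPM), for the summed gut epithelium markers (148 CPM) and for the share of mitochondrially encoded counts (5.199%). It was the lowest for *Myh3* (1880.2 CPM), *Chrng* (26.8 CPM), *Cdkn1a* (210.3 CPM), *Scn4a* (27.0 CPM), *Dysf* (35.5 CPM) and *Nes* (255 CPM). P1 replicate 3 was the lowest for *Myh15* (0.0427 CPM), and P1 replicate 1 had the highest *Ctsk* (339.9 CPM). At P14 replicate 4 had the highest *Mylk4* (483 CPM), *Mybpc1* (3827 CPM), *Igfbp3* (126 CPM) and *Cox7a2* (254 CPM), and replicate 1 was the only P14 library with *Krt1* above 0 (0.0981 CPM).

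For 8 genes the course from P1 to P14 differed between KO and WT muscle by the interaction test of edgeR (log2 of the KO change minus the WT change, 16 libraries, 4 per group). It was 2.18 for *Cilp*, 1.68 for *Htra4*, 1.51 for *Eda2r* and 1.23 for *Cpne2*. It was -1.02 for *Galnt15*, -1.26 for *Chodl*, -1.36 for *Mtm1* and -1.43 for *Ppara*.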

How the results depend on the processing

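Of 127 named genes' values recomputed under the alternatives, 2370 kept direction and side of the threshold, 88 lost and 40 gained a call, and 26 changed sign. Without 1 library the DEGs numbered 8721 to 9482 and with the other tools 9548 (DESeq2) or 9353 (DESeq2's size factors), against 9328. Library totals called 1630 genes higher and 9616 lower. They left 1 developmental isoform, 2 junction, 5 myogenic, 5 growth factor, 14 fatty acid, 1 myotubularin, 2 autophagy and 2 of the 10 KO against WT genes higher, with 78 ribosomal and 43 matrix genes lower. They turned the sign of *Mtm1* (-0.20), *Actc1* (-0.66), *Mylk4* (-0.23), *Myh7* (-0.26), *Mybpc1* (-0.54), *Prkar1a* (-0.080), *Des* (-0.15), *H19* (-0.56), *Nr6a1* (-0.19), *Bin1* (-0.36), *Ctsb* (-0.29), *Lamp1* (-0.15), *Ctsd* (-0.33), *Mstn* (-0.017), *Runx1* (-0.70) and *Dnm2* (-0.55). Testing against a fold change of 1.5 left 2753 genes higher, and a log2 fold change over 1 left 2584. The former left 2 developmental, 1 myotubularin and 5 autophagy genes higher, and 3 slow fibre, 25 cell cycle and 10 ribosomal genes lower. The latter left 1 myotubularin and 5 autophagy genes higher and 10 ribosomal genes lower. At least 10 counts in every library left 7355 DEGs, 3 developmental and 3 myotubularin genes higher, *Actc1* at -0.034 and *Runx1* at -0.086. Library totals also called *Utrn*, *Nes*, *Meg3*, *Rpl4*, *Rps2*, *Rplp0*, *Mtmr3*, *Atp2a2*, *Cox8a*, *Slc2a1*, *Pax7*, *Mki67*, *Tubb6* and *Mustn1* lower. With edgeR's newer quasi-likelihood estimate *Acta1*, *mt-Co1*, *mt-Co2*, *Igf2*, *Cdkn1c* and *Col3a1* lost their calls (adjusted *P* up to 0.144). With no filter *Runx1* was at -0.015. Removal of the mitochondrially encoded genes leaves 0 of them by construction. Without 1 library the higher myotubularin genes numbered 3 to 5, *Actc1* ran from -0.077 to 0.18, *H19* from -0.048 to 0.30, *Runx1* from -0.093 to 0.094 and *Mustn1* from -0.12 to 0.039. Of the share values, 28 moved by more than 1 SD when not divided by exon length. The interaction count of 8 became 52 with DESeq2 (40 more positive, 12 more negative), 3 with all 32 libraries (2 and 1) and 0 to 8 without 1 library (0 to 5 each way), with 2 more negative under library totals. Same replicate numbers did not pair the libraries (correlations of deviations -0.060 to 0.045, 0 of 4 best with their own number). The replicate block gave 8867 DEGs, 4 interaction genes (2 each way) and *Runx1* at -0.0032. Except where given, causes were not tested.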
